A study of Mus musculus with 8 samples.

Results

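The effect of vitamin C on DNA methylation in the presence of L-proline was examined in mouse embryonic stem cells by comparing 4 of the 8 libraries of the study, those with L-proline plus vitamin C and those with L-proline alone, on day 2 and day 5. The libraries were made by reduced representation bisulfite sequencing (RRBS), which reads cytosine methylation in restriction fragments rich in CpG dinucleotides and does not tell 5-methylcytosine from 5-hydroxymethylcytosine. The cells were of strain 129/SvP, were plated sparsely and grew in medium with fetal bovine serum (FBS) and the self-renewal cytokine LIF, and all 4 libraries came from cells given 1 mM L-proline. In 2 of them 500 µM vitamin C was present as well. Each treatment and day had 1 library, and the labels do not say whether the libraries came from separate cultures, so the day is the only repeat of the comparison. Members were the CpGs on chromosomes 1 to 19 listed at 10 or more reads in all 4 libraries, which were 700056 of the 1002817 listed in any of the 8 libraries. The study's title sets the supplements against each other, and the comparison asked how fully vitamin C removed methylation while L-proline was present and which sites kept it.

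Vitamin C keeps the iron of TET dioxygenases in its reduced form, and these enzymes oxidise 5-methylcytosine as a first step towards its removal. L-proline is an amino acid that moves embryonic stem cells towards a primed state, in which more DNA methylation is usual. Promoters of germline genes are silenced by methylation in most other cells, whereas imprinted control regions carry methylation on the allele of 1 parent and are protected during the demethylation of the early embryo.

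Depth differed between the libraries. Median coverage in the CpG set was 53 reads on day 2 and 25 on day 5 with L-proline plus vitamin C, and 36 and 35 reads with L-proline alone. The lambda contig, used as a control without methylation, read 0.195% to 0.490% methylated in the 4 libraries. Intervals and tests on reads hold counting error at most, because PCR copies cannot be told from separate molecules. Where reads are summed over CpGs, a read is counted once for each CpG it covers. Intervals over pooled reads and Fisher's exact tests of promoter windows treat these counts as independent and so understate the counting error. RRBS gives no expression markers of cell identity, and of 12 pluripotency genes only the promoter windows of Sox2 and Tfcp2l1 could be read, at under 1% methylation in all 4 libraries.

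The promoters that show the range of responses are printed first, as the 300 bases from 250 before to 50 after each gene start (RefSeq, GRCm38.p6, 5′ to 3′ on the gene's strand), with capitals marking the CpGs measured in all 4 libraries. Gene starts were located among the deposited mm9 positions from the spacing of CpGs alone, and no coordinates were converted. Atf7ip, which encodes a partner of the histone methyltransferase SETDB1, had the most complete loss of the 20 windows called on both days.
Atf7ip (chr6:136518601-136518900, plus strand): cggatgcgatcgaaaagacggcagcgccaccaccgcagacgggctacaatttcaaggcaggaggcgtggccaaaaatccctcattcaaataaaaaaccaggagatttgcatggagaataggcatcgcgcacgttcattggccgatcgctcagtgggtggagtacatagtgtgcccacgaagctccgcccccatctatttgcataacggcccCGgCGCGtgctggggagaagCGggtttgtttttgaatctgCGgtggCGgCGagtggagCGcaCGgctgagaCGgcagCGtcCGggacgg
Slc25a31, Hormad1 and Asz1 are genes of the germline and lost part of their promoter methylation. Slc25a31 encodes an ADP/ATP carrier of sperm mitochondria, Hormad1 a meiotic chromosome axis protein and Asz1 a protein of the piRNA pathway.
Slc25a31 (chr3:40708621-40708920, plus strand): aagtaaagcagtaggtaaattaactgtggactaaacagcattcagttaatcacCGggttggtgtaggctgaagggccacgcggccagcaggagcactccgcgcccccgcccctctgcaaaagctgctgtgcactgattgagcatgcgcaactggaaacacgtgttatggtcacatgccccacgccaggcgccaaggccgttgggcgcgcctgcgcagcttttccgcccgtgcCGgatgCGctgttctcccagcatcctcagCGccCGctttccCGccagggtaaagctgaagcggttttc
Hormad1 (chr3:95559427-95559726, plus strand): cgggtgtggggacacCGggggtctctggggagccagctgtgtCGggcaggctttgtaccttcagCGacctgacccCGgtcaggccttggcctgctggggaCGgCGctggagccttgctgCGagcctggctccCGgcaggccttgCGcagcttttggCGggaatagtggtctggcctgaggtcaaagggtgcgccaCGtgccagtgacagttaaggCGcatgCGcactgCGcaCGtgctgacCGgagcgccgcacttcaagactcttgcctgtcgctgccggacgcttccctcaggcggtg
Asz1 (chr6:18109012-18109311, minus strand): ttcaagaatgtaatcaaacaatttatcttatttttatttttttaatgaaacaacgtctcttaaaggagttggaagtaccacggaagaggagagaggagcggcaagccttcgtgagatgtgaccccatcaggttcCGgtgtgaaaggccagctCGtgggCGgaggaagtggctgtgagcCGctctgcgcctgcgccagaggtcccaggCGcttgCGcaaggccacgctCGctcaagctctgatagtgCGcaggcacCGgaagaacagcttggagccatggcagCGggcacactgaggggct
Taf1c, a subunit of the selectivity factor of RNA polymerase I, had a promoter window that stayed above 80% in every library.
Taf1c (chr8:119602597-119602896, minus strand): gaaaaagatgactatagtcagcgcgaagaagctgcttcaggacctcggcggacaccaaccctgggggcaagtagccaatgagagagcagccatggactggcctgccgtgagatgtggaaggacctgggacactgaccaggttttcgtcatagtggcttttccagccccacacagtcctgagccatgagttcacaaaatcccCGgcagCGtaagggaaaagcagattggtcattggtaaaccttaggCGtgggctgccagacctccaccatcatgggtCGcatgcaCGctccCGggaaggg
Plagl1, a paternally expressed zinc finger gene, and Mcts2, an imprinted retrogene within an intron of H13, had partly methylated windows in all 4 libraries.
Plagl1 (chr10:13090582-13090881, plus strand): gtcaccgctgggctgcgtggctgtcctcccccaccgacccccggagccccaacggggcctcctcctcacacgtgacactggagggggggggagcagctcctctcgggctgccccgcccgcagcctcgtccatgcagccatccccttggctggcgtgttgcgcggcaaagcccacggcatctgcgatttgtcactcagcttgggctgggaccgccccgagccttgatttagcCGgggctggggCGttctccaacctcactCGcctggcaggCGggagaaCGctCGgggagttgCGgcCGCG
Mcts2 (chr2:152686898-152687197, plus strand): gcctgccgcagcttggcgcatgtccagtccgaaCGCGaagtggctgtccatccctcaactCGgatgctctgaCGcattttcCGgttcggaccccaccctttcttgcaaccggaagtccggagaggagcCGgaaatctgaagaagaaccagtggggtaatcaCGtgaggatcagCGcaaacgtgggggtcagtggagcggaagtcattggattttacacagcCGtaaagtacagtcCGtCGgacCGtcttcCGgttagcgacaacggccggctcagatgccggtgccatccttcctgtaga
The E-box CACGTG, which reads the same on both strands and is found in many germline gene promoters, occurred 2 times in the Hormad1 window and 1 time each in the windows of Slc25a31, Plagl1 and Mcts2. TGCCGC, the hexamer that ZFP57 recognises at imprinted control regions, was searched on both strands and occurred 1 time each in the windows of Asz1, Plagl1 and Mcts2. No CACGTG overlapped a TGCCGC in these windows. Of all 31396 autosomal promoter windows in the table, 7.14% held CACGTG and 11.6% held TGCCGC.

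With vitamin C added, methylation was lower by a minority of the level present with L-proline. On day 2, mean CpG methylation was 22.4% with L-proline plus vitamin C and 25.8% with L-proline alone, a difference of -3.41 percentage points. On day 5 it was 21.8% with L-proline plus vitamin C and 28.7% with L-proline alone, a difference of -6.91 points. The libraries with vitamin C differed by less than 1 point between days, and both lay below both libraries without it. Relative to L-proline alone, 86.8% of methylation remained on day 2 and 75.9% on day 5, lower by 13.2% and 24.1% of that level. Every library was of day 2 or day 5 and none preceded treatment, so removal cannot be told apart from a smaller gain. Throughout, loss, removal and the share remaining mean a level set against that with L-proline alone on the same day. The mean difference was -5.16 ± 2.48 points (SD, n = 2 days), lower on both days, and p was 0.5 in an exact two-sided permutation test by sign flips, the smallest value that 2 pairs allow. Over pooled reads, methylation on day 2 was 17.3% (95% Wilson interval 17.29 to 17.31) with both supplements and 20.3% (20.33 to 20.35) with L-proline alone. On day 5 the pooled values were 16.8% (16.81 to 16.84) with both and 23.9% (23.84 to 23.87) with L-proline alone. Over all CpGs listed in each library, not the same CpGs in each, day 2 gave 27.9% with both supplements and 28.1% with L-proline alone. On day 5 these means were 23.0% with both supplements and 32.3% with L-proline alone.

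Loss was spread over the range of methylation, and from the class of 5 to 20% upwards the share that remained was larger in each higher class on both days. CpGs were placed in classes by the L-proline library of one day and read on the other, so that the library that classed a CpG was not part of the difference. CpGs at 5 to 20% with L-proline on day 2 had 4.38% on day 5 with both supplements and 15.2% with L-proline alone, and 28.7% of their methylation remained. For CpGs of 20 to 40% the day 5 values were 19.7% with both and 45.4% with L-proline alone, with 43.3% remaining. CpGs of 40 to 60% had 37.96% with both and 63.7% with L-proline alone, with 59.6% remaining. On day 5 the loss in points was similar over the middle of the range, at -25.7 in the class of 20 to 40%, -25.8 in that of 40 to 60% and -25.4 in that of 60 to 80%. On day 2 it was not, with -7.31, -10.0 and -12.7 points in the same classes and -9.91 in that of 80 to 95%. With L-proline alone, the classes of 20 to 40%, 40 to 60% and 60 to 80% set on day 2 averaged 45.4%, 63.7% and 84.2% on day 5. These day 5 differences thus hold a rise with L-proline alone above the class limits, whose part was not tested. On day 5 CpGs of 80 to 95% lost less in points, with 77.9% with both supplements and 92.9% with L-proline alone, and 83.8% of the methylation remained. Those of 95% or more had 84.6% with both and 94.9% with L-proline alone, with 89.1% remaining. On day 2, read in classes set on day 5, the order from 5 to 20% upwards was the same, and the remaining share ran from 50.3% in that class to 92.0% at 95% or more. CpGs under 5% had little to lose, with 0.600% and 0.655% with both supplements on days 2 and 5, against 0.789% and 1.41% with L-proline alone. The share that remained in this lowest class, 76.0% and 46.4%, was above that of the class of 5 to 20% on both days.

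**Figure D1:**
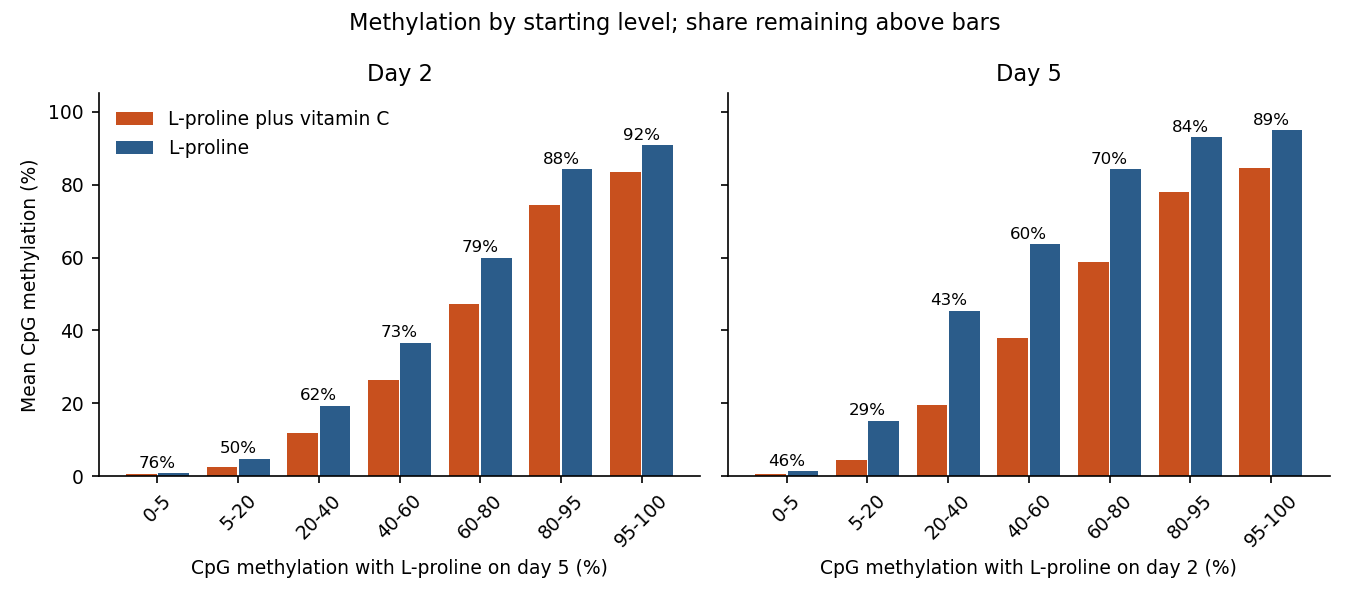
Mean CpG methylation (%, bars from 0) with L-proline plus vitamin C and with L-proline alone on day 2 and day 5, in classes of CpGs set by the L-proline library of the other day; the number above each pair is the share of L-proline methylation remaining. The remaining share on day 5 was 28.7% in the class of 5 to 20% and 89.1% in the class of 95 to 100%.

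At single CpGs, Fisher's exact test between the libraries of each day (two-sided, Benjamini-Hochberg adjusted p under 0.05 and a difference of 20 points or more) called far more losses than gains. On day 2, 3918 CpGs (0.56%) were lower and 12 (0.00171%) were higher with both supplements than with L-proline alone. On day 5, 41439 (5.92%) were lower and 91 (0.013%) were higher. These tests compare libraries, not conditions. The 1969 CpGs called lower on both days made up 50.3% of the day 2 list and 4.75% of the day 5 list. Read on the day that had not called them, CpGs of the day 2 list differed by -34.4 points on average on day 5, and 96.7% of them were lower. CpGs of the day 5 list differed by -13.9 points on day 2, and 87.2% of them were lower. With every CpG thinned to 10 reads, 0 CpGs were called on either day. At 10 reads per library the test can hardly pass the adjustment over all CpGs, so this 0 was largely fixed in advance. The count of calls depends on the reads per CpG, and the part of coverage differences between the libraries was not tested.

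Complete removal was rare at CpGs that L-proline left highly methylated. Of the 440060 CpGs with 20 or more reads in the 4 libraries, 58125 had 80% or more in both L-proline libraries. With both supplements, 2 of these were under 20% on day 2 and 29 (0.0499%) on day 5. Under 50% were 411 (0.707%) on day 2 and 1389 (2.39%) on day 5, and 179 (0.308%) were under 50% on both days. Most stayed high, since 71.4% were still at 80% or more on day 2 and 61.6% on day 5. Their median was 85.7% with both supplements and 92.6% with L-proline alone on day 2. On day 5 it was 83.3% with both supplements and 95.6% with L-proline alone. These CpGs were chosen as high in the same L-proline libraries, which favours a higher level there. CpGs at 95% or more made up 9.76% with both supplements and 34.7% with L-proline alone on day 2, and on day 5 they made up 14.9% with both supplements and 54.4% with L-proline alone. On both days together, 1987 CpGs (3.42%) stayed at 95% or more with both supplements and 12538 (21.6%) with L-proline alone. Shares at 95% or more depend on the reads per CpG. Over the full CpG set, median coverage with both supplements was 53 reads on day 2 and 25 on day 5, and the part of depth was not tested.

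Reads were then summed over fixed 1 kb tiles with at least 3 CpGs, of which there were 60546. With both supplements 44244 tiles (73.1%) were lower on both days than with L-proline alone, and 2895 (4.78%) were higher on both. In limma, with terms for vitamin C and day, 6941 tiles (11.5%) passed as lower and 1 (0.00165%) as higher at an adjusted p under 0.05 and a mean difference of 10 points or more. That fit had 1 residual degree of freedom per tile and took 1 variance for all tiles (infinite prior degrees of freedom). Its p therefore does not measure a tile's own spread over days. Without the day term 0 tiles passed. With all 8 libraries in the fit 0 tiles passed as well, with 17324 lower and 244 higher at an unadjusted p under 0.05 in limma, and the smallest adjusted p was 0.0693. With the libraries centred to one median, 0 passed, and at an unadjusted p under 0.05 limma gave 3544 lower and 4492 higher. Centring subtracts 1 shift from every tile of a library. The calls are used below only to rank tiles.

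Of 22062 tiles at 80% or more in both L-proline libraries, 11068 (50.2%) were also at 80% or more with both supplements on both days, and 5107 (23.1%) were under 80% on both. Their median was 84.4% with both supplements and 91.3% with L-proline alone on day 2, and on day 5 it was 81.9% with both supplements and 94.3% with L-proline alone. The choice of tiles keeps the L-proline libraries at 80% or more and sets no such limit on the others. The 5th percentile lay at 67.3% with both supplements and 81.9% with L-proline alone on day 2, and on day 5 at 60.7% with both supplements and 85.9% with L-proline alone. With both supplements 51 of these tiles on day 2 and 254 on day 5 were under 50%, and under 20% there were 0 tiles on day 2 and 1 on day 5. Day by day, 68.6% of tiles at 80% or more with L-proline alone were kept at that level with vitamin C on day 2 (15303 of 22311), and 49.0% on day 5 (13041 of 26629), a mean of 58.8 ± 13.9% (SD, n = 2 days). The sets of tiles differ between the days, and the SD holds that change too. Among the 22062 tiles, those of 3 to 4 CpGs (15465) were kept at 69.7% on day 2 and 58.5% on day 5.

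**Figure D2:**
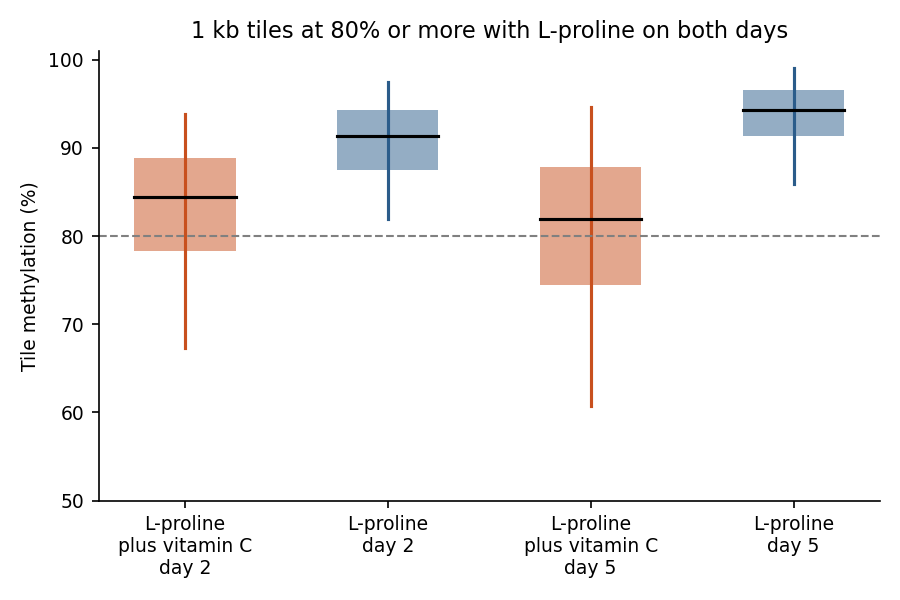
Methylation (%, axis from 50%) of the 22062 tiles of 1 kb at 80% or more in both L-proline libraries, by library; boxes span the 25th to 75th percentile, black lines are medians, coloured lines span the 5th to 95th percentile and the dashed line is 80%. The medians with L-proline plus vitamin C were 84.4% on day 2 and 81.9% on day 5, against 91.3% and 94.3% with L-proline alone.

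The tiles that kept methylation on one day tended to keep it on the other. Tiles kept on day 2 averaged 83.9% on day 5 with both supplements and 94.4% with L-proline alone, and 72.5% of them were at 80% or more with both. Tiles not kept on day 2 averaged 72.0% on day 5 with both supplements and 91.3% with L-proline alone, and 24.7% of them were at 80% or more with both. The gap was present at matched levels. Among tiles of 95 to 100% with L-proline alone on day 5, those kept on day 2 averaged 84.8% with both supplements and those not kept 74.5%. Among tiles of 80 to 85%, the values were 80.2% for kept and 68.3% for not kept tiles. In the other direction, tiles kept on day 5 averaged 86.2% on day 2 with both supplements and 91.9% with L-proline alone, and tiles not kept averaged 72.0% with both supplements and 82.9% with L-proline alone. At matched levels with L-proline alone on day 2 that gap was smaller, at 3.86 points among tiles of 95 to 100% and 7.73 among those of 80 to 85%. Across the 22062 methylated tiles the differences of the 2 days correlated at r = 0.404, a description over tiles that share the libraries of each day.

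Kept methylation was less frequent near gene starts. Among the 65 methylated tiles that lay 1 to 1000 bases from a placed gene start, 13.8% were kept on both days. Of the 38 that held a gene start, 28.9% were kept. The share was 40.1% of 162 tiles at 1 to 2 kb, 44.8% of 2919 tiles at 5 to 20 kb and 54.1% of 9878 tiles more than 100000 bases away. Medians with L-proline alone were lower near starts by a few points, at 89.0% on day 2 and 92.2% on day 5 for the tiles at 1 to 1000 bases, against 91.7% and 94.4% for those more than 100000 bases away. With both supplements the medians of these 2 groups of tiles were 75.6% and 71.9% near starts on days 2 and 5, and 85.1% and 82.9% far from them. Only 7319 genes had a placed start, so a tile far from every placed start may lie near another gene. CpG number made less difference, with 50.3% of tiles of 3 to 4 CpGs, 49.9% of those of 5 to 9 and 48.5% of those of 10 to 19 kept on both days. By mean coverage per CpG the share was 50.3% of 990 tiles at 10 to 20 reads, 49.0% of 15291 at 20 to 40, 53.1% of 5718 at 40 to 80 and 72.9% of 59 at 80 to 200, and the part of coverage was not tested. Between chromosomes the share ran from 45.3% on chromosome 11 to 53.8% on chromosome 6. The loss of a methylated tile was weakly correlated with that of its neighbour 1 kb away, at r = 0.195 on day 2 and 0.165 on day 5 over 867 pairs of tiles that share their libraries. At 31 to 100 kb these values were 0.00906 and 0.0189.

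**Figure D3:**
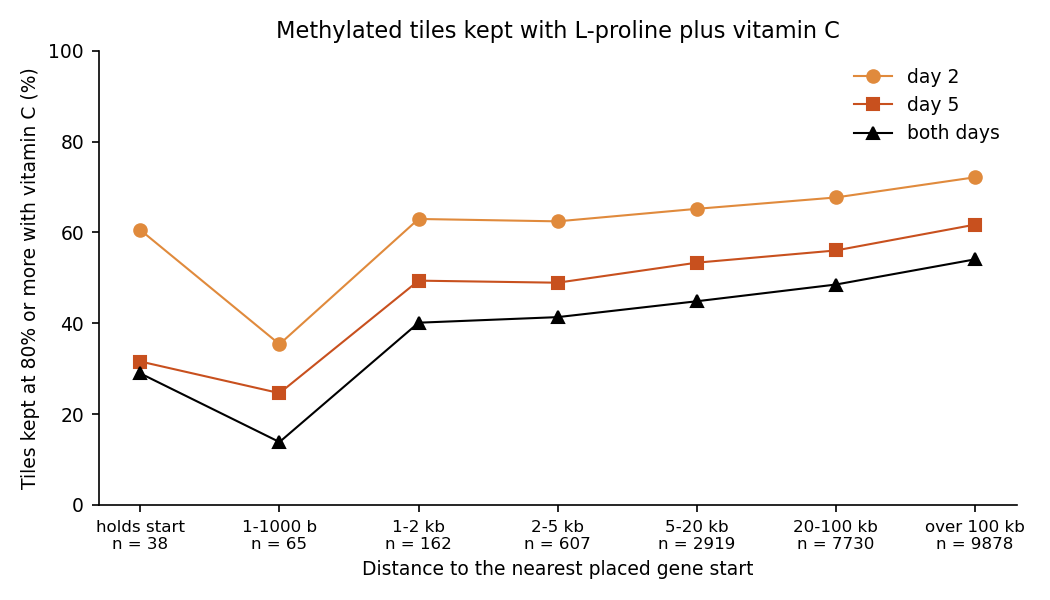
Share (%) of tiles at 80% or more with L-proline alone on both days that stayed at 80% or more with L-proline plus vitamin C, on day 2, on day 5 and on both days, by distance of the tile from the nearest gene start that could be placed; n is the number of tiles. The share kept on both days was 13.8% at 1 to 1000 bases and 54.1% at more than 100000 bases.

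The tiles with the largest losses were intermediate to high with L-proline and came down to low levels by day 5. The ranking took the 1859 tiles called lower in limma, lower on both days and with at least 5 CpGs and 100 reads per library. These reads are summed over the CpGs of a tile, so a read that covers several CpGs counts several times. The largest mean loss was on chromosome 7 from 29997001 to 29998000 (mm9; 8 CpGs). It had 28.9% on day 2 and 8.70% on day 5 with both supplements, and 64.8% and 82.8% with L-proline alone. Its difference was -55.0 ± 27.0 points (SD, n = 2 days; adjusted p = 0.000261 in limma, from the variance shared by all tiles). The third, on chromosome 19 from 30614001 to 30615000, had 21.5% and 4.63% on days 2 and 5 with both, and 60.4% and 72.2% with L-proline alone. The fifth largest, on chromosome 6 from 52159001 to 52160000, lay 330 bases from the placed start of Hoxa6, a homeobox gene of body patterning. It had 34.9% and 14.4% with both supplements on days 2 and 5, and 67.3% and 82.1% with L-proline alone. In all 8 largest losses the values with both supplements were lower than those with L-proline alone on each day without overlap, which the choice of these tiles fixed in advance. The other five, on chromosomes 7, 10, 14, 16 and 18, differed by -53.9 to -48.7 points.

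A small number of tiles stayed nearly complete. Of 4882 tiles with at least 5 CpGs and 100 reads that had 80% or more in both L-proline libraries, 2475 were at 80% or more in all 4 libraries and 20 at 95% or more in all 4. The tile with the highest lowest value was on chromosome 11 from 80829001 to 80830000 (mm9; 9 CpGs, 144 to 390 reads summed over them). It had 97.2% on day 2 and 98.6% on day 5 with both supplements, and 97.2% and 97.6% with L-proline alone. On chromosome 14 from 32090001 to 32091000 (9 CpGs) the values were 96.9% and 97.4% with both, and 98.0% and 98.2% with L-proline alone. The largest difference of a day in these tiles was -1.13 points, whereas the 8th of the list, on chromosome 8 from 66387001 to 66388000, had 95.8% and 95.7% with both supplements, and 98.8% and 100% with L-proline alone.

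Gains were small. The tile on chromosome 1 from 76176001 to 76177000 had 47.2% on day 2 and 60% on day 5 with both supplements, and 45.1% and 38.2% with L-proline alone. Its mean difference of 11.96 ± 13.9 points was smaller than its spread over days and did not pass (limma adjusted p = 0.509). The third largest gain lay on chromosome 2 from 152512001 to 152513000 and held the start of Mcts2. Its 21 CpGs had 17.2% and 19.9% with both supplements on days 2 and 5, and 11.9% and 10.4% with L-proline alone (limma adjusted p = 0.408). None of the 5 largest gains among these tiles passed, and of all 60546 tiles limma called 1 higher.

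Promoters were compared in 7270 placed windows of 6612 genes with at least 4 measured CpGs. Most had nothing to lose, as 6774 (93.2%) were under 5% in both L-proline libraries. Of the 53 windows at 50% or more in both L-proline libraries, 47 were lower on both days with both supplements, a direction that choosing them in the L-proline libraries favours, against 2522 (34.7%) of all 7270 windows. Fisher's exact test over all windows called 23 (0.316%) lower on day 2 and 88 (1.21%) on day 5, with 20 (0.275%) lower on both days, which hold 19 separate sets of CpGs, and 0 higher on either day. At a difference of 10 points 86 windows were lower on both days and at 30 points 6. These tests summed counts over the CpGs of a window, so a read that covers several CpGs counted several times. The p of Fisher's exact test for a window is therefore smaller than separate reads would give, and the calls share this limit. Limma over the 4 libraries called 4 windows (0.055%) lower, with 1 residual degree of freedom per window. Among them the windows of Atf7ip and Gm44140 hold the same CpGs.

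The window shared by Atf7ip and Gm44140, which start close together on opposite strands, came closest to full loss. Its 12 CpGs had 6.55% on day 2 and 1.58% on day 5 with both supplements, and 42.1% and 40.7% with L-proline alone. The difference was -37.3 ± 2.53 points (SD, n = 2 days), with Fisher's exact test adjusted p = 3.98e-43 on day 2 and 9.29e-58 on day 5, and limma adjusted p = 0.00969. Every one of the 12 CpGs was at 17.6% or less on day 2 and 6.56% or less on day 5 with both supplements, and at 14.3% or more and 17.5% or more with L-proline alone. Hoxd12, a homeobox gene of limb and axis patterning, had 5.09% and 11.3% with both supplements on days 2 and 5, and 29.0% and 66.9% with L-proline alone. Plut, an antisense transcript beside Pdx1, had 19.96% and 8.54% with both, and 53.2% and 64.4% with L-proline alone, the largest mean difference of the windows at -44.5 ± 16.0 points. Rpl39l, a ribosomal protein paralogue of the testis, had 11.1% and 12.8% with both, and 41.9% and 43.0% with L-proline alone, a difference that was nearly the same on both days at -30.5 ± 0.358 points. Il11, a cytokine of the IL-6 family, had 34.6% and 13.2% with both, and 56.5% and 65.7% with L-proline alone. In these windows the values with and without vitamin C did not overlap, which the choice of windows called lower on both days largely fixed.

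Not every called window was at a low level with both supplements. Slc6a9, a glycine transporter, had 62.0% and 65% with both supplements on days 2 and 5, and 84.6% and 93.6% with L-proline alone. The remaining called windows were those of Atcayos, Gm2511, Pnliprp2, Gm33806, Ptpn20, Mir1a-1hg, Plekhg4, Lypd3, Gm12111 and Sult2b1, with mean differences of -44.4 to -22.6 points, beside the germline genes described next.

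Of 15 germline genes listed, 6 had a tested window, and all 6 windows were lower on both days with both supplements, against 34.7% of all windows. Most of all windows were under 5% with L-proline alone, whereas these 6 had 13.7% or more. Of the 53 windows at 50% or more in both L-proline libraries, 47 were lower on both days, so the direction does not set the germline list apart. Fisher's exact test with the minimum of 20 points called 3 of the 6 genes on day 2 and 4 on day 5, and Hormad1, Asz1 and Slc25a31 on both. Over all windows these shares were 0.316%, 1.21% and 0.275%. Only 123 of all windows had 20% or more in both L-proline libraries and could be called lower on both days. The shares are thus not matched for level and do not set the germline list apart. The median mean difference of the list was -28.6 points, against -0.111 over all 7270 windows, most of which were unmethylated. Hormad1 had 23.3% on day 2 and 22.5% on day 5 with both supplements, and 46.8% and 60.9% with L-proline alone (exact Fisher adjusted p = 4.65e-19 and 2.53e-36). Asz1 had 49.2% and 45.7% with both, and 76.6% and 82.3% with L-proline alone. Slc25a31 had 20% and 15.7% with both, and 43.0% and 57.8% with L-proline alone. The loss was partial in all 3. Sycp1, a component of the synaptonemal complex, had 48.4% and 47.1% with both, and 67.0% and 81.1% with L-proline alone, and passed on day 5. Mael, a piRNA pathway protein, had lower levels, with 3.63% and 6.79% with both and 16.6% and 22.5% with L-proline alone. Ddx4, a germline RNA helicase, had 5.09% and 4.96% with both, and 13.7% and 17.8% with L-proline alone. Neither of these windows could reach a difference of 20 points on day 2. CACGTG was present in the windows of 5 of the 6 genes, all except Asz1.

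Within a promoter, single CpGs differed in what they kept. In Hormad1 the 16 CpGs ran from 4.08% to 44.9% on day 2 and 0% to 66.7% on day 5 with both supplements, and from 4.35% to 72.7% and 13.6% to 75.7% with L-proline alone. The CpGs farthest upstream of the start held the highest values with both supplements. At position -235 relative to the start Hormad1 had 39.0% and 66.7% with both supplements on days 2 and 5, over 41 and 12 reads, and 72.7% and 75.7% with L-proline alone. At position -118 it had 6.38% and 4.55% with both, and 25.9% and 53.3% with L-proline alone.

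**Figure D4:**
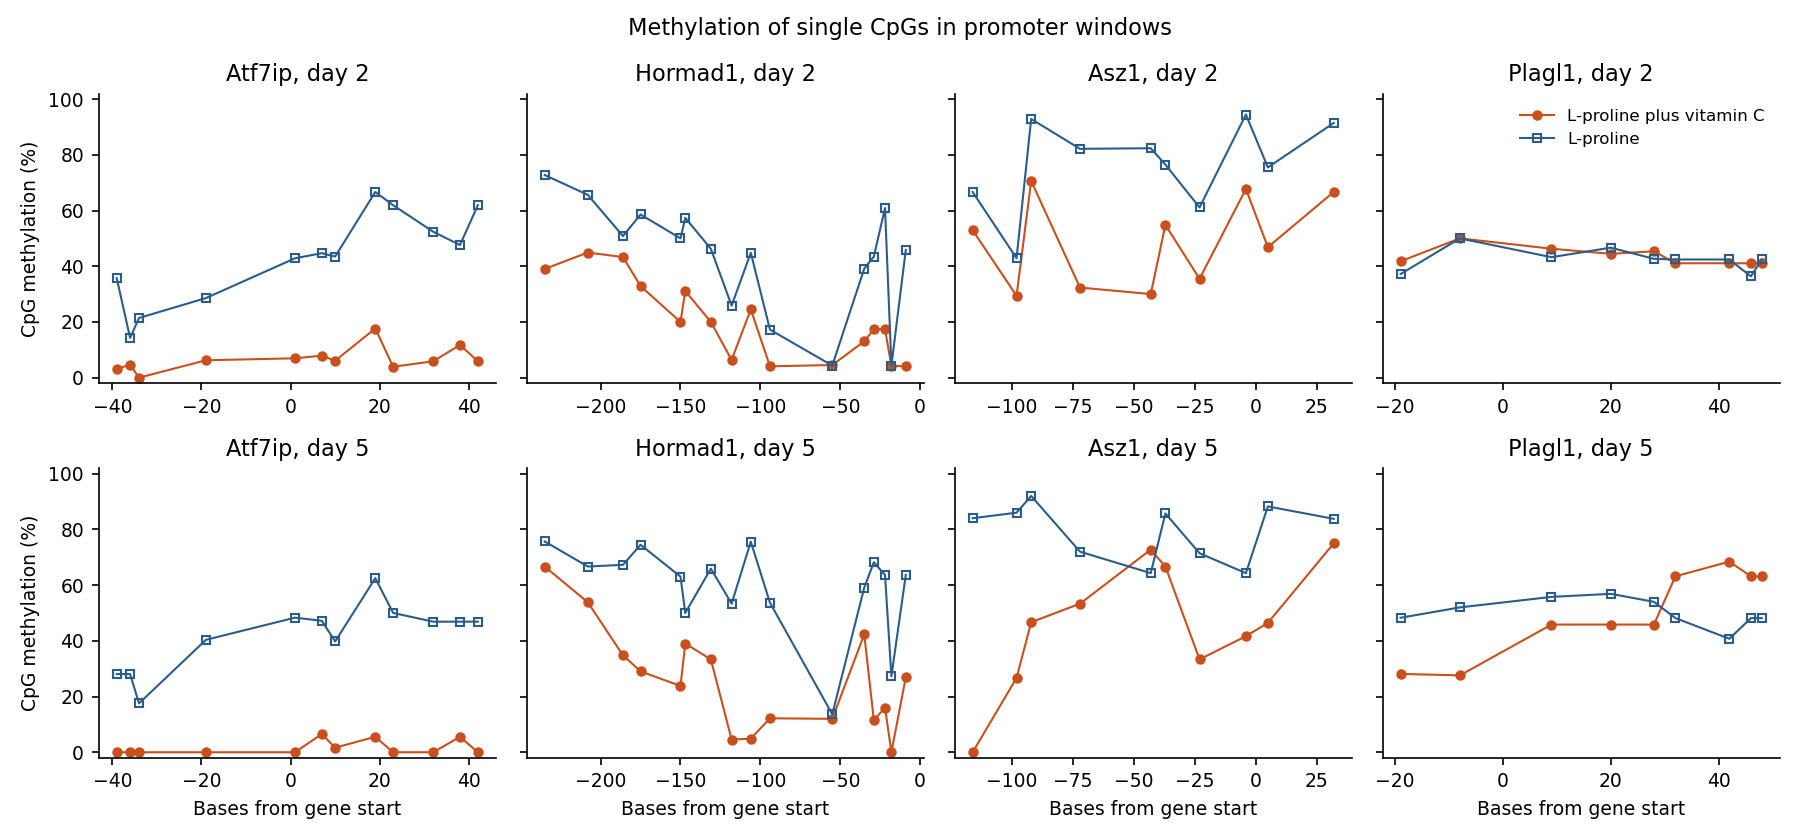
Methylation (%) of single CpGs against their distance in bases from the gene start in the promoter windows of Atf7ip, Hormad1, Asz1 and Plagl1 on day 2 (top) and day 5 (bottom), with L-proline plus vitamin C and with L-proline alone. In Atf7ip every CpG was lower with vitamin C on both days, whereas in Plagl1 the lines crossed.

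Promoter windows that kept high methylation were few. Of 32 windows at 80% or more in both L-proline libraries, 11 were at 80% or more with both supplements on both days. Taf1c had 90.4% on day 2 and 88.6% on day 5 with both supplements, and 90.3% and 92.7% with L-proline alone. Tbc1d22a, which encodes a Rab GTPase-activating protein, had 85.8% and 88.6% with both, and 93.9% and 92.7% with L-proline alone. Gm33462 had 95.1% and 97.9% with both, and 93.1% and 90.7% with L-proline alone. Emid1, an extracellular matrix protein, stayed high but was lower, with 88.3% and 85.1% with both and 97.0% and 97.8% with L-proline alone. The other kept windows were those of Gm38744, Gm46244, LOC108167659, Aknaos, Gm36875, Gm14329 and A1cf. Among the 21 windows not kept on both days, Gm33806 had the largest mean difference at -33.9 ± 9.18 points.

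**Figure D5:**
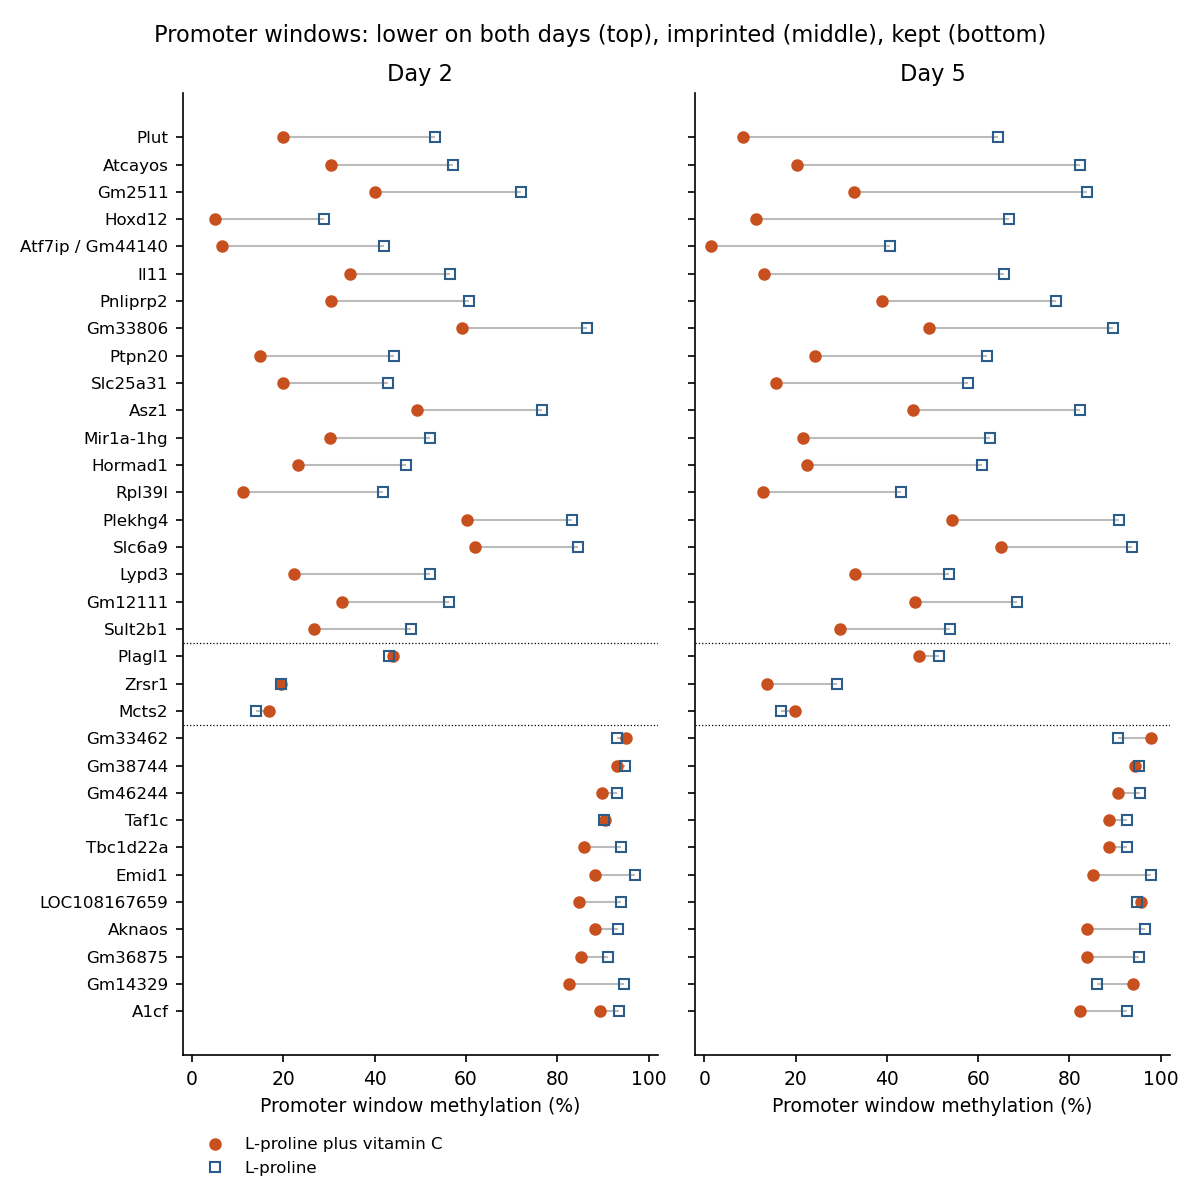
Methylation (%) of promoter windows with L-proline plus vitamin C (filled circles) and with L-proline alone (open squares) on day 2 and day 5. The top group are the windows called lower on both days, the middle group the imprinted genes above 5%, and the bottom group the 11 windows at 80% or more in all 4 libraries.

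Of 20 imprinted genes listed, 6 had a tested window and 0 passed Fisher's exact test with the minimum of 20 points on either day, beside shares of 0.316% (day 2) and 1.21% (day 5) called lower over all windows, so a count of 0 does not set the list apart. The windows of Grb10 and Igf2r were under 2% in all 4 libraries. Plagl1 had 43.9% on day 2 and 47.0% on day 5 with both supplements, and 43.1% and 51.4% with L-proline alone, a difference of -1.80 ± 3.75 points (SD, n = 2 days; exact Fisher adjusted p = 1 on day 2 and 0.796 on day 5). Across the other 4 libraries its window had 24.2% on day 2 and 34.4% on day 5 with vitamin C alone, and 57.2% and 28.8% in untreated cells, a range over the 8 libraries far wider than the difference on either day. Mcts2 had 16.7% and 19.9% with both supplements, and 13.9% and 16.8% with L-proline alone. Zrsr1, an imprinted retrogene with an RNA-binding protein product, had 19.4% and 13.8% with both, and 19.5% and 29.2% with L-proline alone, and its day 5 difference had an exact Fisher adjusted p of 0.00187 but was under 20 points. Of the Gnas windows, 1 was under 1% in all 4 libraries and the other had 0.201% and 2.02% with both supplements and 1.10% and 13.9% with L-proline alone (exact Fisher adjusted p = 6.84e-07 on day 5, under 20 points). With a minimum of 20 reads the mean difference was -6.13 points in Plagl1 and 8.11 in Mcts2, so the small values at 10 reads depended on the CpGs kept. Single CpGs of Mcts2 on day 2 differed in both directions, with 13.3% with both supplements and 40% with L-proline alone at the start itself, and 24% with both supplements and 0% with L-proline alone at position -178.

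The other gene lists were almost free of promoter methylation. The 9 windows of 7 genes of the methylation machinery, among them Dnmt1, Dnmt3a, Tet2 and Tet3, reached at most 2.54% in any of the 4 libraries, and 0 passed Fisher's exact test. The same count held for 4 windows of proline and collagen genes and 2 windows of vitamin C transport and metabolism genes, near the 0.316% and 1.21% of all windows called lower on days 2 and 5. Of 6 windows of primed or lineage genes, 1 of Pax6, an eye and neural transcription factor, was called on day 5 with the minimum of 20 points, and 5 were lower on both days without that minimum or a test. The called window had 4.08% and 2.04% with both supplements on days 2 and 5, and 11.8% and 28.9% with L-proline alone (exact Fisher adjusted p = 8.35e-23 on day 5). The windows of Foxa2, an endoderm transcription factor, had exact Fisher adjusted p of 0.0261 and 0.0409 on day 5 with smaller differences, and the higher one had 1.97% and 1.83% with both supplements on days 2 and 5, and 6.92% and 10.9% with L-proline alone.

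The loss with L-proline present was set beside that without it, over the 616929 CpGs listed in all 8 libraries. With L-proline, mean methylation differed by -3.03 points on day 2 and -6.17 on day 5, and 85.8% and 74.3% remained. Without L-proline, vitamin C against untreated cells differed by -2.26 and -5.17 points, and 88.2% and 75.7% remained. The difference with L-proline minus that without it was -0.888 ± 0.168 points, a larger loss with L-proline on both days (SD, n = 2 days; exact sign-flip permutation p = 0.5, the smallest possible). Over pooled reads the difference was -0.939 ± 0.377 points, but the share that remained on day 5 turned round, at 69.3% with L-proline and 66.8% without it. An interaction term for the supplements in limma called 0 of 49568 tiles, with 1349 lower and 451 higher at an unadjusted p under 0.05. In the 10858 tiles at 80% or more in all 4 libraries without vitamin C, median methylation was 86.5% with both supplements and 83.3% with vitamin C alone on day 2, and on day 5 it was 84.3% with both supplements and 81.9% with vitamin C alone. Without vitamin C the same tiles were also higher with L-proline, at 92.6% and 94.8% with L-proline alone on days 2 and 5, and 88.4% and 91.9% in untreated cells. At 80% or more on both days were 6974 (64.2%) with both supplements and 4958 (45.7%) with vitamin C alone. The 4141 tiles kept under both conditions made up 59.4% of the list with both supplements and 83.5% of the list with vitamin C alone.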

How the data were processed

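RRBS was made from 8 libraries, and the 4 with L-proline were used for the comparison. The submitters' processing notes name CASAVA, BSMAP 2.88 and mm9 (mouse), without roles or settings. For each CpG the authors deposited the fraction of reads methylated (0 to 1) and the coverage in reads, with a minimum of 10 reads. The sources used here do not say how duplicates and conversion were treated.

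Methylated reads were taken as coverage times fraction, rounded. Fisher's exact test was run per CpG and, on counts summed over CpGs, per promoter window, with Benjamini-Hochberg adjustment over all tested. Reads summed over 1 kb tiles were fitted in limma 3.58.1 (R 4.3.3) on log2((methylated + 1)/(unmethylated + 1)), with a call at a mean difference of at least 10 points. Day was used as the pairing, as the labels give it. The procedures were tested on simulated data.

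Promoter windows of 300 bases from the RefSeq table (GRCm38.p6) were placed at the position of their chromosome where at least 8 listed CpGs matched CpGs of the sequence and none mismatched. Between placed neighbours in reference order at least 6 matches were needed. This placed 8227 of 31396 windows, of 7319 genes. On the wrong chromosome 43 windows were placed by the first search, against 7127 on the right one, and 99.9% of the latter were in reference order. The search between neighbours placed 1109 windows, among them the kept windows of LOC108167659 and Gm46244. With the CpG pattern mirrored, it placed 18. How many methylated windows are misplaced was not tested.

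Named tiles had at least 5 CpGs and 100 reads, summed over CpGs, in each of the 4 libraries. Of these they are the 8 largest called losses, the 8 kept at the highest level and the 5 largest gains. Single promoters were picked for description after their values were seen. The members and gene lists were chosen with earlier results of these data known, and the placement of promoters was added after the files had been seen.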

Additional observations from a re-analysis of the deposited data

How the results depend on the processing

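The mean difference was negative on both days under every alternative run (20 or 30 reads, CpGs of all 8 libraries, pooled reads, thinning to 10 reads). Its mean ran from -5.16 to -2.90 points. CpGs called lower numbered 1792 on day 2 and 12183 on day 5 at a minimum of 30 reads, 26629 on day 5 at 20 reads, and 0 on each day after thinning to 10 reads. These alternatives leave fewer CpGs or fewer reads.

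Tile calls depended on the settings of limma. Day pairs the libraries, and without that block (no replicate block) 0 tiles passed, with 19995 lower and 221 higher at an unadjusted p under 0.05. All 8 libraries, centred libraries and a quasi-binomial model gave 0 each, and the quasi-binomial model had 15978 lower and 22 higher at an unadjusted p under 0.05. Leaving out each library in turn from the limma fit of all 8 gave 0 to 3031 tiles, the 3031 without L-proline on day 2. At least 5 CpGs per tile gave 2809, a pseudocount of 0.5 gave 1424 and 20 reads gave 2321, whereas a pseudocount of 2 gave 10068, tiles of 2 kb 7219 and tiles of 500 bases 6117, against 6941 as reported. The cause was not tested.

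The share of methylated tiles kept was 75.1% with a threshold of 70% and 23.6% with one of 90%. For promoters, alternatives chosen after seeing the data gave 86 windows at 10 points, 6 at 30 points, 9 at 20 reads and 4 in limma. At 20 reads 54 named tiles and windows had a value and 30 had none. Of the 54, 12 moved by more than their SD over days, no called value changed sign, and 3 windows near 0 that were not called did (Tet2, Tet3 and Grb10).

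With 1 library per treatment and day, differences between cultures or libraries cannot be told apart from treatment.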
